A study of Mus musculus with 15 samples.

Results

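The LDL receptor family members described here were 8 genes, Vldlr, Lrp1, Lrp2, Lrp4, Lrp8, Lrp10, Lrp12 and Sorl1. They were chosen by symbol, and every probe set that carried 1 of these symbols and no other was kept, which gave 20 of the 45101 probe sets on the array. Signals came from adult mouse retinas, from which endothelial cells were pulled with beads against PECAM, their adhesion protein, with 1 array per pool. There were 3 pools of Fz4-/- mice, 3 of Lrp5-/- mice, 3 of Norrin KO mice (titled Norrin- in the labels) and 6 of wild-type mice. Fz4 is the Frizzled receptor that Norrin binds, Lrp5 its coreceptor and Norrin the secreted ligand. Each pool held 5 to 10 adult mice, and all 4 groups were of a C57Bl6/129 mixed background and labelled as mixed gender. The labels give no Cre line and no agent, and nothing says whether the pools of a group were purified on different days, so a p-value here speaks only of how much the pools vary, which may be technical in part.

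Receptors of the LDL receptor family are membrane proteins whose outer part is built from cysteine-rich ligand-binding repeats, and most of them carry bound ligand into endosomes and return to the surface. Vldlr and Lrp8 (also called ApoER2) bind apolipoprotein E and reelin and signal through the adaptor Dab1. Lrp1 and Lrp2 (megalin) are very large scavenger receptors, Lrp4 is the agrin receptor of the neuromuscular junction and binds Wnt inhibitors, and Sorl1 is a sorting receptor between Golgi and endosome. In mouse retina, loss of Vldlr is known for abnormal vessels that grow into the outer retina. Lrp5 belongs to the same family by structure, but it works as a Wnt coreceptor and was deleted in 1 of the groups, so it is given here only as a relative.

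The signals are log2 RMA values, so a difference of 1 is a doubling, and probe sets near the bottom of the scale understate a change. The median probe set of an array lay at 5.88 to 6.04, and a probe set below it in all 4 groups is called dim. Levels of different probe sets are not compared, because probes differ in brightness. The array labels held for the 2 deleted genes that could be checked. Fzd4 was 4.22 ± 0.30 in Fz4-/- pools (SD, n = 3) and 12.09 ± 0.20 in wild-type pools (n = 6), and Lrp5 was 4.91 ± 0.45 in Lrp5-/- pools and 7.69 ± 0.27 in wild-type pools. Ndp, which encodes Norrin and is made outside the endothelium, was dim everywhere (4.13 ± 0.24 in Norrin KO and 4.44 ± 0.19 in wild type) and checks nothing. All 7 endothelial markers lay above the array median in every group, with array means of 11.64 to 11.97 in the 9 mutant pools and 11.81 to 12.10 in wild type, and over the mean of the mutants 1 of them was called higher and 2 lower, where 13.0% and 8.94% of the 18193 genes were. Array means over the 8 pericyte and smooth muscle markers were 11.63 to 12.11 in mutant pools and 11.55 to 11.89 in wild type. The arrays least like the rest of their groups were Lrp5-/- 1, Norrin KO 1 and wild type 4 (mean correlation 0.968, 0.966 and 0.963). The gap between the 3′ and 5′ actin controls, a sign of RNA quality, was 2.92, 1.05 and 1.46 on Norrin KO 1 to 3. On the arrays of the other groups it was 0.558 to 1.04. The female gene Xist was at 4.12 to 4.98 on the 3 Norrin KO arrays and at 11.42 to 11.88 on the 3 Fz4-/- arrays, and both levels occurred within Lrp5-/- and within wild type. The Y gene Eif2s3y was at 9.77 to 10.32 on the Norrin KO arrays, at 9.57, 9.63 and 3.25 on Fz4-/- 1 to 3 and at 10.11, 10.48 and 3.21 on Lrp5-/- 1 to 3. By these genes the Norrin KO pools read as male, so the label of mixed gender did not hold for every pool. The part of sex or of RNA quality in the Norrin KO values was not tested.

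Lrp8 had the largest change of the family. Its signal fell in all 3 mutants on all 3 of its probe sets, and these were the 3 member probe sets called lower in each comparison with wild type. Called means an adjusted p below 0.05 in limma, adjusted by Benjamini and Hochberg over all 45037 probe sets that are not array controls. The share of all probe sets called lower was 4.25% in Fz4-/-, 4.18% in Lrp5-/-, 8.57% in Norrin KO and 7.41% over the mean of the 3 mutants. The 3 of 20 lower probe sets all belong to Lrp8, so they are 1 gene and not 3 findings.

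On the brightest Lrp8 probe set, 1440882_at, the signal was 8.07, 7.36 and 8.12 on the Fz4-/- arrays, 6.97, 7.42 and 6.79 on the Lrp5-/- arrays and 7.80, 8.12 and 7.38 on the Norrin KO arrays. The 6 wild-type arrays ran from 11.46 to 11.84 with a median of 11.71. All 9 mutant arrays lay at least 3 log2 units below the lowest wild-type array, and the mutant groups overlapped each other. The change was −3.83 ± 0.21 in Fz4-/- (SE, n = 3 against 6, limma adjusted p = 2.03e-08), −4.62 ± 0.21 in Lrp5-/- (adjusted p = 5.26e-09) and −3.91 ± 0.21 in Norrin KO (adjusted p = 1.75e-08). Over the mean of the mutants the fall was 17.4-fold, the 29th largest fall among the 45037 probe sets. Along the order of the levels, wild type was highest, then Fz4-/- (7.85 ± 0.42), Norrin KO (7.77 ± 0.37) and Lrp5-/- (7.06 ± 0.33). Fz4-/- and Norrin KO differed by 0.08 (95% interval −0.43 to 0.60). Norrin KO over Lrp5-/- was 0.71 (0.20 to 1.22), which did not pass after adjustment over all probe sets (limma adjusted p = 0.0821) but did without Lrp5-/- 2 (adjusted p = 0.0452).

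The second probe set, 1442347_at, gave 6.74, 5.98 and 7.87 in Fz4-/-, 6.79, 6.75 and 6.50 in Lrp5-/- and 6.76, 6.81 and 7.04 in Norrin KO, against 10.63 to 11.15 in wild type (median 10.87). The mutant means were 6.86 in Fz4-/-, 6.68 in Lrp5-/- and 6.87 in Norrin KO, and the Fz4-/- arrays alone spanned the range of the other mutant arrays. Its change was −4.02 in Fz4-/-, −4.21 in Lrp5-/- and −4.02 in Norrin KO, each ± 0.29 (SE, limma adjusted p = 3.68e-07, 3.81e-07 and 3.75e-07). The third, 1421459_a_at, was dimmer. It read 4.73, 5.06 and 4.72 in Fz4-/-, 4.36, 5.04 and 5.13 in Lrp5-/- and 6.41, 4.81 and 4.94 in Norrin KO, against 6.31 to 7.43 in wild type. Only Norrin KO 1, the array with the widest gap between 3′ and 5′ actin signals, reached into the wild-type range. On that probe set the Norrin KO change was −1.19 ± 0.34 (limma adjusted p = 0.0218), and it was −1.71 without Norrin KO 1 (adjusted p = 0.00147). The call ended without Norrin KO 2 or Norrin KO 3 (adjusted p = 0.105 and 0.104) and with only the arrays of Norrin KO and wild type in the fit (adjusted p = 0.0529). The Lrp5-/- change, −1.74 (limma adjusted p = 0.00458), was −1.37 without Lrp5-/- 1, Lrp5-/- 3 and wild type 4 and did not pass with the 1 Lrp5-/- array left (adjusted p = 0.205). All mutant arrays but Norrin KO 1 lay below their array median on this probe set, 8 arrays in all.

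**Figure D1:**
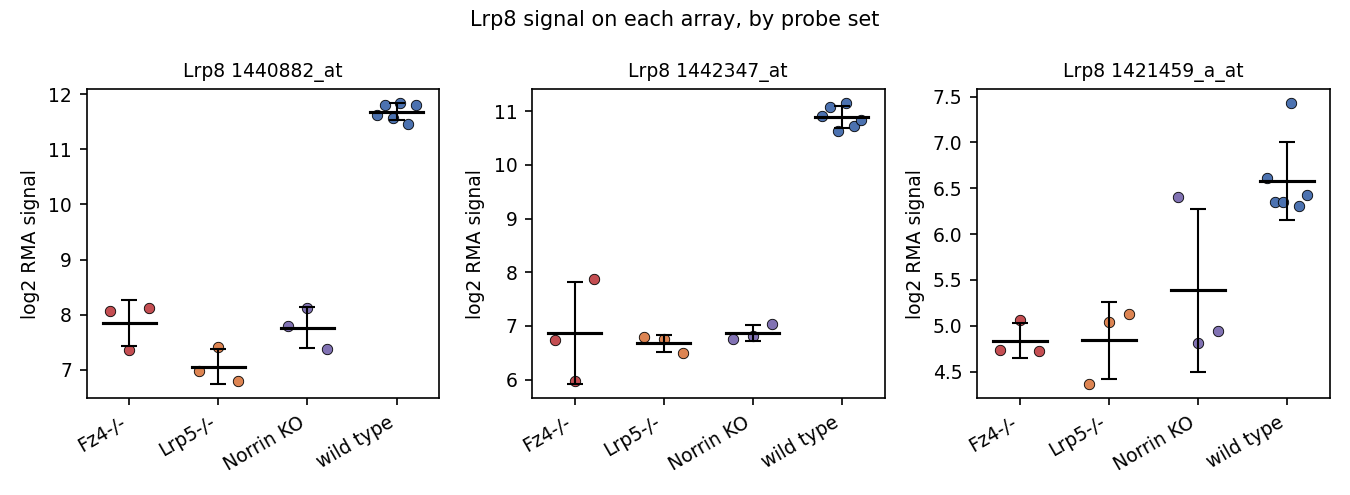
Log2 RMA signal of the 3 Lrp8 probe sets (vertical axis, 1 panel each) on every array, by group (horizontal axis). Points are arrays, the long bar is the group mean and the whisker 1 SD. On the left and middle panels the 9 mutant arrays (6.79 to 8.12 and 5.98 to 7.87) lie below the 6 wild-type arrays without overlap. On the right panel Norrin KO 1, at 6.41, reaches the wild-type arrays.

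The Lrp8 falls were about as large when the comparison used only part of the wild-type pools. Xist and the Y gene Eif2s3y ran alike in Fz4-/- 1 to 3 and wild type 1 to 3, and in Lrp5-/- 1 to 3 and wild type 4 to 6. Against these wild-type arrays alone, 1440882_at was at −3.81 in Fz4-/- (limma adjusted p = 6.01e-07) and −4.64 in Lrp5-/- (adjusted p = 1.74e-07). With these arrays as pairs in a block, a fit added after the data were seen, both were still called (limma adjusted p = 3.01e-04 and 2.21e-04). Over all 25 alternatives in Fz4-/- and in Lrp5-/- and 23 in Norrin KO, it stayed between −3.97 and −3.59, between −4.80 and −4.23 and between −4.09 and −3.72. Lrp8 is also a gene of neurons. Array means over 5 inner retinal neuron markers were 6.21 to 7.20 in mutant pools and 6.43 to 7.02 in wild type, with 0 of 5 called higher or lower over the mean of the mutants. Means over 5 rod photoreceptor markers were 6.62 to 7.92 in Fz4-/-, 7.23 to 8.41 in Lrp5-/-, 6.09 to 7.82 in Norrin KO and 5.93 to 7.06 in wild type. Of these, 1 was called higher and 0 lower, where 13.0% and 8.94% of all genes were. The part of neurons in the Lrp8 and Sorl1 values was not tested. In pools of cells, fewer cells with a transcript and less of it in each cell cannot be told apart.

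Because Lrp8 carried the largest change, its annotated starts are shown. RefSeq places Lrp8 on mouse chromosome 4 (GRCm38.p6), on the plus strand, with 3 starts in the promoter table, each given as 250 bases before and 50 after the start. The most upstream and the most downstream are printed 5′ to 3′ in lower case with matches to the TCF/LEF core, searched as CTTTGA and CTTTGT on both strands, in capitals.
Lrp8 upstream start, chr4:107802635-107802934: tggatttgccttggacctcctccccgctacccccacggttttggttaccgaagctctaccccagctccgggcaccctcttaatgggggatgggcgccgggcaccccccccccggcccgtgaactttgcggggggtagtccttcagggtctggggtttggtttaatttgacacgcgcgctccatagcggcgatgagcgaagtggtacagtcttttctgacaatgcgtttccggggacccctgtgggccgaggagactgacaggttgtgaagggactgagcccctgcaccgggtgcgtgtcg
Lrp8 downstream start, chr4:107830703-107831002: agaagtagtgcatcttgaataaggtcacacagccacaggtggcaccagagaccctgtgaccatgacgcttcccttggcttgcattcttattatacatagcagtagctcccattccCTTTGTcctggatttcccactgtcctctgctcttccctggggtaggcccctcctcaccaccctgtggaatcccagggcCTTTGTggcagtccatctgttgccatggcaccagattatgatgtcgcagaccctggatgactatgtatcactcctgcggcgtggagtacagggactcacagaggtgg
The upstream window had no match, and neither had that of the middle start. The downstream window held CTTTGT in 2 places, at bases −135 to −130 and −57 to −52 from the start, both on the strand of the gene. The motif CTTTGA was present in 16.0% of all 32851 windows of this length and CTTTGT in 18.7%, and 31.2% held either. The upstream window had 62.7% GC and 21 CpG, against medians of 52.7% and 7 over all windows. RefSeq windows were also found for Vldlr, Lrp1, Lrp2, Lrp10 and Sorl1, which gave 10 windows over 6 members. Among those of the other members only that of Lrp10 held a match, CTTTGA at −128 to −123. A match is a description of letters, and binding was not measured.

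Genes with the pattern most like Lrp8 over the 15 arrays were Car5a, a mitochondrial carbonic anhydrase, Stra6, the receptor that takes up retinol from its binding protein, and Islr2, a leucine-rich repeat protein of neurons. Likeness was the root mean square difference per array between signals centred on their own mean, over 18192 other genes. It was 0.424 for Car5a, 0.441 for Stra6 and 0.452 for Islr2, each on the log2 scale. Their changes over the mean of the mutants were −4.51, −4.13 and −4.72, beside −4.12 for Lrp8.

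Several members went the other way. Over the mean of the 3 mutants 5 of the 20 probe sets were called higher, 1 each of Lrp4, Lrp12, Lrp1, Sorl1 and Vldlr, where 10.3% of all probe sets were. By mutant, 2 were higher in Fz4-/- (7.70% of all probe sets), 3 in Lrp5-/- (3.51%) and 3 in Norrin KO (11.9%). Lrp4 and Lrp12 were called higher in each mutant. On all 9 mutant arrays 3 probe sets lay above all 6 wild-type arrays, those of Lrp4, Lrp12 and Lrp1 1448655_at, where 3.36% of all probe sets did. Another 2 lay below them, both of Lrp8, where 2.60% did. The median change of the 20 probe sets was 0.17 over the mean of the mutants, against −0.02 for all probe sets.

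Lrp4, with 1 probe set, rose in each mutant. The arrays gave 10.50, 10.60 and 10.73 in Fz4-/-, 10.26, 10.26 and 10.24 in Lrp5-/- and 10.39, 11.04 and 11.41 in Norrin KO, against 8.62 to 9.27 in wild type with a median of 9.08. No mutant array overlapped a wild-type array, and the Norrin KO arrays were spread most widely. The change was 1.62 ± 0.21 in Fz4-/- (SE, n = 3 against 6, limma adjusted p = 1.06e-04), 1.27 ± 0.21 in Lrp5-/- (adjusted p = 0.0013) and 1.96 ± 0.21 in Norrin KO (adjusted p = 1.77e-05). Norrin KO over Lrp5-/-, the ends of the order among mutants, was 0.69 (95% interval 0.18 to 1.21) and did not pass (adjusted p = 0.0889), but it passed without Norrin KO 1 (adjusted p = 0.0379). Neighbours in the order did not pass either, at −0.34 (−0.85 to 0.18) for Fz4-/- minus Norrin KO and 0.36 (−0.16 to 0.87) for Fz4-/- minus Lrp5-/-. With Lrp5-/- 1, Lrp5-/- 3 and wild type 4 left out, Lrp5-/- kept 1 array and the Lrp4 change was 1.20 (adjusted p = 0.112). That lone array is assumed to vary like the other groups. Nearest to Lrp4 in pattern were Il3ra, the alpha chain of the interleukin-3 receptor (root mean square difference 0.239), Tbc1d2b, a Rab GTPase-activating protein (0.248), and Cd276, an immune checkpoint protein also called B7-H3 (0.256).

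Lrp12, a smaller receptor of the family with ligands less well known, was higher by less. It read 8.11, 8.07 and 8.32 in Fz4-/-, 7.70, 7.63 and 7.76 in Lrp5-/- and 7.27, 8.42 and 7.85 in Norrin KO, against 6.53 to 7.22 in wild type (median 7.02). Norrin KO 1 lay closest to wild type, and no mutant array overlapped a wild-type array. The change was 1.22 ± 0.21 in Fz4-/- (SE, limma adjusted p = 0.00133), 0.89 ± 0.21 in Norrin KO (adjusted p = 0.00843) and 0.74 ± 0.21 in Lrp5-/- (adjusted p = 0.0457). The Lrp5-/- call ended without any 1 of 12 arrays (adjusted p = 0.0571 to 0.156), that is, all but Norrin KO 1, Norrin KO 2 and wild type 3. With Lrp5-/- 1 to 3 paired with wild type 4 to 6 it was 0.92 (limma adjusted p = 0.00796). Fz4-/- over Lrp5-/- was 0.47 (95% interval −0.05 to 1.00), and no difference between mutants passed.

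Lrp1, a scavenger receptor of many cell types, rose in Norrin KO on its brighter probe set, 1448655_at. The signal was 10.00, 9.99 and 9.87 in Fz4-/-, 9.72, 10.00 and 9.74 in Lrp5-/- and 10.82, 10.31 and 10.58 in Norrin KO, against 8.99 to 9.70 in wild type (median 9.53). Every mutant array lay above the highest wild-type array, at 9.70, and the lowest Lrp5-/- array at 9.72 came closest to it. The change was 1.10 ± 0.16 in Norrin KO (SE, limma adjusted p = 3.23e-04), 0.49 ± 0.16 in Fz4-/- (adjusted p = 0.0711) and 0.35 ± 0.16 in Lrp5-/- (adjusted p = 0.265). The difference between Norrin KO and Lrp5-/-, 0.75 (95% interval 0.34 to 1.15), was the only 1 of 20 that passed in that pair (adjusted p = 0.0307), where 7.44% of all probe sets did. It ended without Lrp5-/- 1, Lrp5-/- 3, Norrin KO 1 or Norrin KO 3 (adjusted p = 0.0719 to 0.114). Xist was at 4.12 to 4.98 in Norrin KO and at 5.90, 4.76 and 12.21 on Lrp5-/- 1 to 3. The part of sex in this difference was not tested. None of the 20 passed between Fz4-/- and Lrp5-/- (0.140% of all probe sets) or between Fz4-/- and Norrin KO (1.21%), by limma. At an unadjusted p below 0.05 there were 2 in each of those pairs. The other Lrp1 probe set, 1442849_at, lay near the array median and was at −0.26 ± 0.35 in Norrin KO (SE, limma adjusted p = 0.631). The probe sets of Lrp1 thus disagreed.

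**Figure D2:**
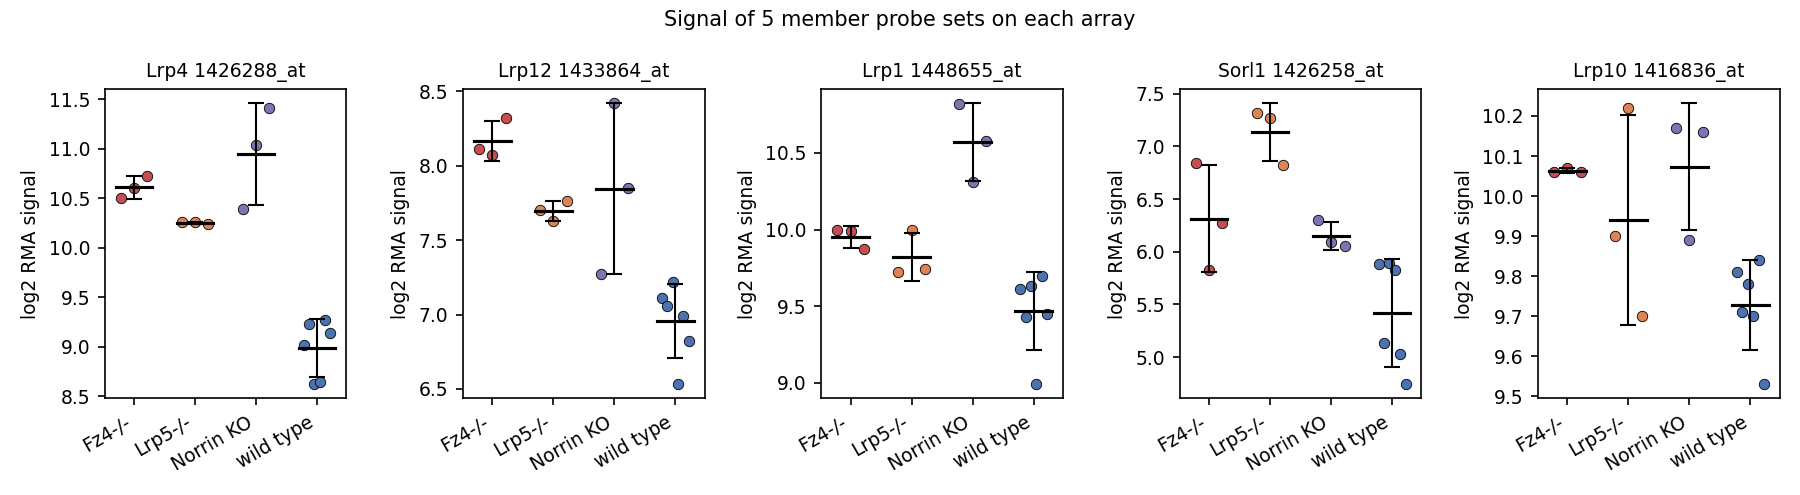
Log2 RMA signal (vertical axis, a scale of its own in each panel) of 5 member probe sets on every array, by group (horizontal axis). Points are arrays, the long bar is the group mean and the whisker 1 SD. Mutant and wild-type arrays do not overlap for Lrp4, Lrp12 and Lrp1, and they overlap for Sorl1 and Lrp10.

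Lrp1 is made by macrophages and pericytes as well as endothelium, and macrophage markers also differed between the groups. Of 9 macrophage and microglia markers, 5 were called higher over the mean of the mutants and 0 lower, where 13.0% and 8.94% of all genes were. Their array mean was 9.66 to 10.26 in Fz4-/-, 9.29 to 9.88 in Lrp5-/- and 9.74 to 10.39 in Norrin KO, against 7.82 to 9.40 in wild type. The markers did not move alike. The mannose receptor Mrc1 was at 8.80 to 11.07 in mutant pools and 3.74 to 7.42 in wild type. Csf1r, the receptor that macrophages need to survive, overlapped, at 11.95 to 13.25 in mutant pools and 11.32 to 12.62 in wild type. Cx3cr1 was at 8.14 to 8.55 in Norrin KO, 8.67 to 9.87 in the other mutants and 8.34 to 9.71 in wild type. The part of these cells in the Lrp1, Lrp4 and Lrp12 values was not tested. Pericyte and smooth muscle markers were called higher in 2 of 8 and lower in 1 of 8.

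Sorl1, the sorting receptor, was described by 3 probe sets that differed in the size of the change. On 1426258_at it was 6.84, 5.83 and 6.27 in Fz4-/-, 7.32, 7.27 and 6.82 in Lrp5-/- and 6.30, 6.09 and 6.05 in Norrin KO, against 4.74 to 5.89 in wild type (median 5.48). The Lrp5-/- and Norrin KO arrays lay above all wild-type arrays, and 1 Fz4-/- array fell among them. The change was 1.72 ± 0.28 in Lrp5-/- (SE, limma adjusted p = 0.00126), 0.90 ± 0.28 in Fz4-/- (adjusted p = 0.0521) and 0.73 ± 0.28 in Norrin KO (adjusted p = 0.081). The Fz4-/- value passed without Fz4-/- 2 or without wild type 1, 3 or 4. Against wild type 1 to 3 alone it was 0.68 (limma adjusted p = 0.276, and 0.0514 with these arrays as pairs). Lrp5-/- did not differ from Norrin KO beyond the adjustment (Norrin KO minus Lrp5-/- −0.99, adjusted p = 0.0763). The brightest Sorl1 probe set, 1453003_at, was higher by 0.80 in Lrp5-/- (adjusted p = 0.123), a value that passed without wild type 1 or against wild type 4 to 6 alone, by 0.38 in Fz4-/- and by 0.28 in Norrin KO. On it, Fz4-/- 1 to 3 minus wild type 1 to 3 were 0.01, −0.20 and 0.39, array by array. Lrp5-/- 1 to 3 minus wild type 4 to 6 were 1.16, 1.22 and 0.98. The third, 1460390_at, was at 0.57 in Lrp5-/-, 0.25 in Fz4-/- and 0.46 in Norrin KO, and did not pass. All 9 changes of the 3 probe sets were positive, with 1 of 9 past the test.

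Lrp10, a small receptor found on endosomes and Golgi, did not pass in any mutant. It was at 10.06, 10.07 and 10.06 in Fz4-/-, 9.90, 10.22 and 9.70 in Lrp5-/- and 10.17, 9.89 and 10.16 in Norrin KO, against 9.53 to 9.84 in wild type. The Fz4-/- and Norrin KO arrays lay above all wild-type arrays, and Lrp5-/- 3 fell among them. The mean of the mutants was 0.30 above wild type (95% interval 0.09 to 0.51, limma adjusted p = 0.0504). This mean did not pass in most alternatives, but it passed without Lrp5-/- 3 or Norrin KO 2. It also passed with 1 probe set per gene, with only the brighter probe sets and with trend and robust options of eBayes. The intervals allow a rise of at most 0.62 in Fz4-/-, 0.49 in Lrp5-/- and 0.63 in Norrin KO.

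Vldlr, with 6 probe sets, gave no common direction. On 1434465_x_at, the brightest, the arrays ran from 7.21 to 8.28 in Fz4-/-, from 8.16 to 10.14 in Lrp5-/- and from 7.17 to 8.31 in Norrin KO, against 7.10 to 10.46 in wild type. All 3 mutant ranges lay inside the wild-type range. The changes of −0.86, 0.23 and −0.92 in Fz4-/-, Lrp5-/- and Norrin KO had wide intervals, the last from −2.18 to 0.33. The highest values came from the same arrays on the 3 Vldlr probe sets that are not dim, Lrp5-/- 1 (10.14, 8.04 and 7.61) and wild type 4 (10.46, 8.00 and 8.43 on 1434465_x_at, 1451156_s_at and 1442169_at). Both arrays correlated least with the rest of their groups. Without them and Lrp5-/- 3, which earlier results of these data had also set apart although its mean correlation with its group was 0.981, the Norrin KO change was −0.58, −0.64 and −0.55 on those probe sets, none of which passed, and the Lrp5-/- change on 1434465_x_at was −0.21 in place of 0.23.

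The other 3 Vldlr probe sets were dim in every group. One of them, 1435893_at, was 0.55 ± 0.18 higher over the mean of the mutants (limma adjusted p = 0.0467). Its mutant arrays (4.36 to 5.08) overlapped those of wild type (3.59 to 4.76), and the call ended without any 1 of 11 arrays, all but Fz4-/- 3, Norrin KO 2, wild type 4 and wild type 6 (adjusted p = 0.0558 to 0.108). Another, 1438258_at, pointed the other way in Norrin KO at −0.88 (adjusted p = 0.0749), and passed without Lrp5-/- 1 or wild type 5. Vldlr in Norrin KO therefore stood between −0.92 and 0.68 over its 6 probe sets, with none called in that comparison, though the 0.68 of 1435893_at passed without Norrin KO 2, wild type 4 or wild type 6 (adjusted p = 0.0211 to 0.0474).

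**Figure D3:**
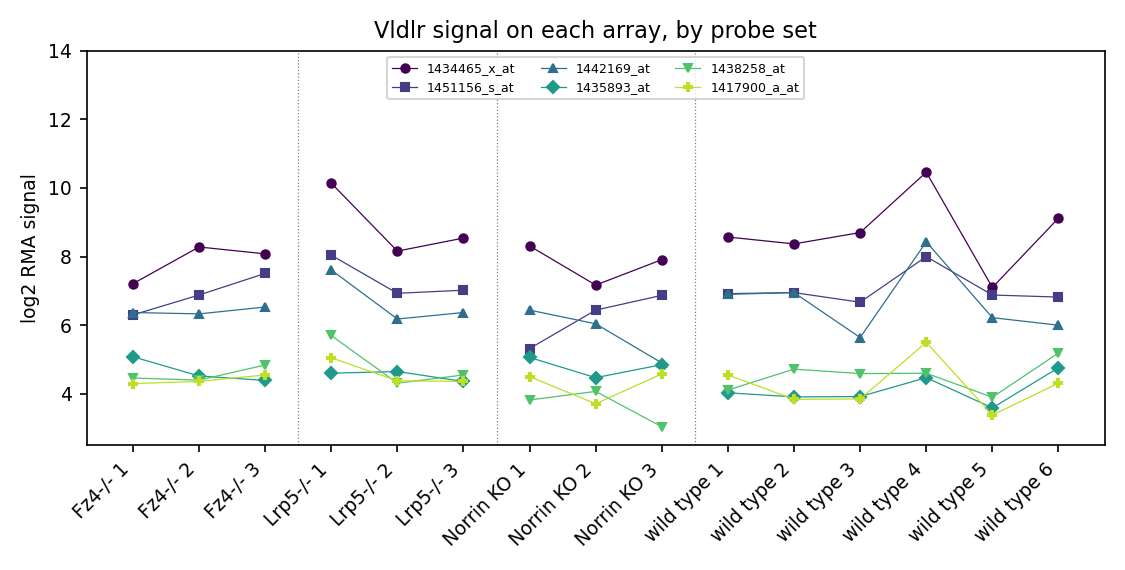
Log2 RMA signal (vertical axis) of the 6 Vldlr probe sets on each of the 15 arrays (horizontal axis, groups parted by dotted lines, lines join arrays of a group). Lrp5-/- 1 and wild type 4 carry the highest values of the 3 brighter probe sets, at 10.14 and 10.46 on 1434465_x_at. Mutant and wild-type arrays overlap on every probe set.

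Lrp2, or megalin, an uptake receptor of absorptive epithelia, was dim on all 3 probe sets and on all 15 arrays, at 2.56 to 4.90. Its changes lay between −0.17 and 0.35 and none was called. The 95% intervals of these changes lay between −0.75 and 0.98. At this signal a change is understated, and absence of the transcript is not shown.

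**Figure D4:**
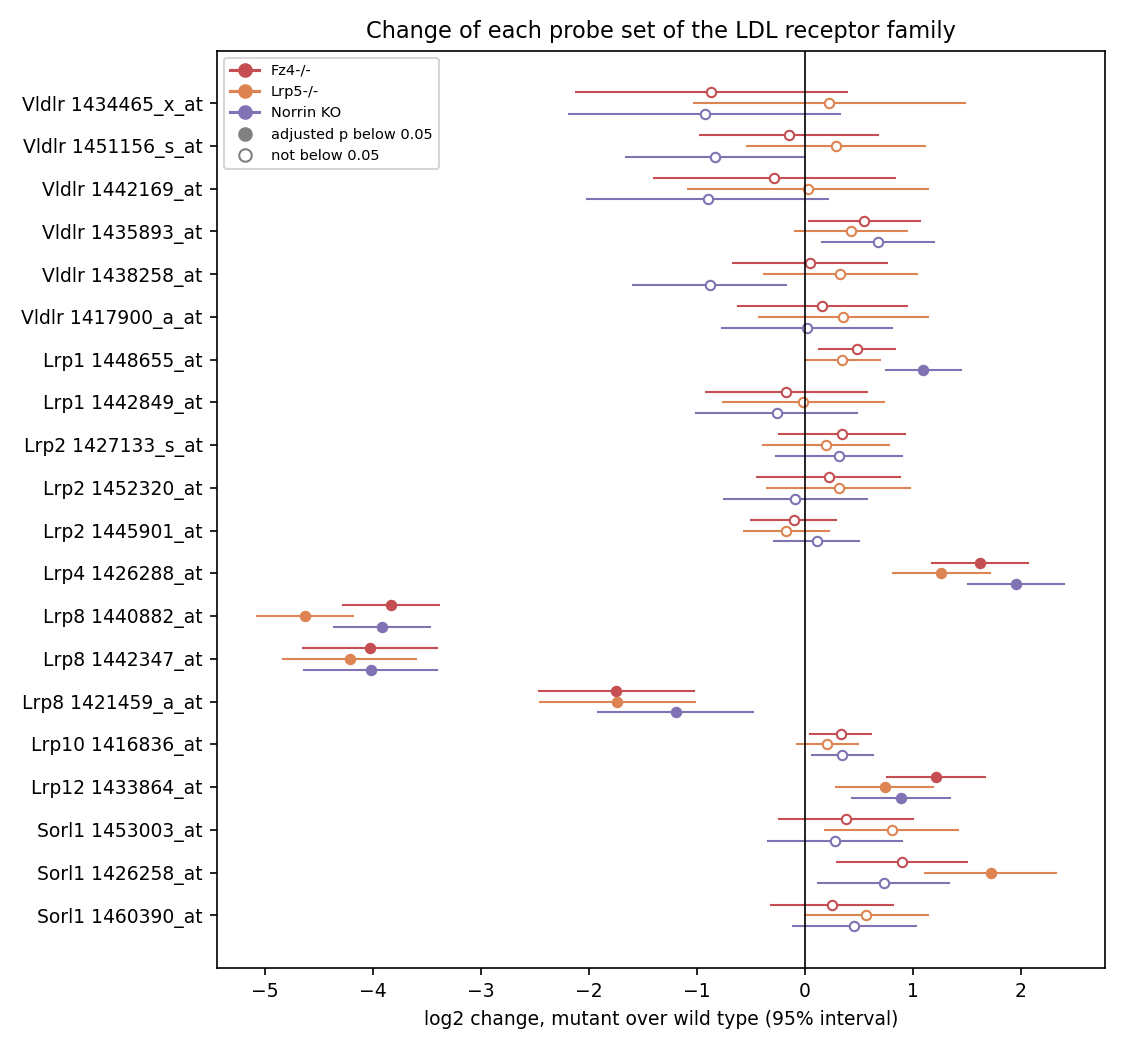
Log2 change of each of the 20 member probe sets in Fz4-/-, Lrp5-/- and Norrin KO over wild type (horizontal axis), with 95% intervals from limma. Filled points passed an adjusted p of 0.05. The 3 Lrp8 probe sets lie left of 0 in all mutants, and Lrp4 and Lrp12 lie right of it in all mutants.

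The mutants share the same 6 wild-type arrays, so their changes are set side by side here and not tested for likeness. On the brightest probe set of each member, only Lrp8 (−3.83, −4.62 and −3.91 in Fz4-/-, Lrp5-/- and Norrin KO) went below −1 in each mutant. Lrp4 (1.62, 1.27 and 1.96) was above 1 in each. Lrp12 (1.22, 0.74 and 0.89) and Lrp1 (0.49, 0.35 and 1.10) were positive in each and above 1 in a single mutant. Sorl1 (0.38, 0.80 and 0.28) and Lrp10 (0.34, 0.21 and 0.35) stayed below 1.

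The relatives of these receptors were read on the brightest probe set of each gene, and here again members moved both ways. Of 6 other receptors of the family measured, 1 was called higher and 3 lower over the mean of the mutants, where 13.0% and 8.94% of the 18193 genes were. Their median change was −0.21, against −0.01 for all genes. This median and the count of 3 lower both include Lrp5, deleted in 1 of the groups, so neither describes the other relatives alone. Ldlrad3, a small family member that acts in breakdown of the amyloid precursor, fell by 0.85 in Fz4-/-, 1.16 in Lrp5-/- and 1.10 in Norrin KO on the log2 scale. Its level was 10.33 ± 0.21, 10.02 ± 0.32 and 10.08 ± 0.12 in these mutants (SD, n = 3) and 11.18 ± 0.06 in wild type (n = 6), with no overlap (limma adjusted p = 0.00114, 1.19e-04 and 1.08e-04). Lrp11, a relative of little known function, was higher in Fz4-/- by 1.02 (adjusted p = 0.0161, a call that ended without Fz4-/- 1 or Fz4-/- 3, or against wild type 1 to 3 alone at 0.111) and in Norrin KO by 1.20 (adjusted p = 0.00424). Lrp6, the coreceptor most like Lrp5, was called lower in Fz4-/- (−0.52, adjusted p = 0.0147, a call that ended without Fz4-/- 1 or 3) and Lrp5-/- (−0.58, adjusted p = 0.0111, ended without Lrp5-/- 1), and was at −0.20 in Norrin KO. With the arrays paired as above, neither Lrp6 call held (limma adjusted p = 0.0567 and 0.0721), nor did that of Lrp11 in Fz4-/- (0.0816). The third lower gene was Lrp5 itself, whose call over the mean of the mutants (−0.78) is set by its deletion in 1 of them, while it was at 0.18 in Fz4-/- and 0.27 in Norrin KO and did not pass there. Lrp3 (0.32) and Lrp1b (0.02) did not pass.

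Among the 4 sortilin receptors, which share the sorting domain of Sorl1, Sorcs2 was called higher over the mean of the mutants and none lower, where 13.0% and 8.94% of all genes were. Sorcs2 was at 1.29 in Fz4-/-, 0.79 in Lrp5-/- and 1.76 in Norrin KO (limma adjusted p = 0.00597, 0.109 and 4.60e-04), and the Fz4-/- call ended against wild type 1 to 3 alone (1.11, adjusted p = 0.0503). Sort1 was higher in Norrin KO (0.98, adjusted p = 0.00587) but at −0.09 in Fz4-/- and −0.35 in Lrp5-/-. Sort1 in Norrin KO was 1.33 above Lrp5-/- (adjusted p = 0.0108), and Fz4-/- minus Norrin KO was −1.08 (adjusted p = 0.0542).

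Of 11 ligands measured, 5 were called higher and 3 lower over the mean of the mutants, where 13.0% and 8.94% of all genes were, with a median change of 0.54, against −0.01 for all genes. By mutant, 4 were higher and 2 lower in Fz4-/- (9.50% and 5.35% of all genes), 4 and 2 in Lrp5-/- (4.74% and 6.00%) and 4 and 3 in Norrin KO (15.2% and 8.19%). Lpl, the lipase that also bridges lipoproteins to these receptors, rose by 2.36 in Fz4-/-, 1.82 in Lrp5-/- and 1.81 in Norrin KO (limma adjusted p = 2.53e-04, 0.00312 and 0.00165). Apoe, a ligand of Lrp8, Vldlr and Lrp1, rose in each as well, by 1.61, 1.49 and 1.17 (adjusted p = 1.60e-04, 4.65e-04 and 0.00166). Its level was 12.23 ± 0.22, 12.11 ± 0.20 and 11.79 ± 0.56 in Fz4-/-, Lrp5-/- and Norrin KO (SD, n = 3), and 10.62 ± 0.23 in wild type (n = 6). Apoe is made in quantity by macrophages and glia. The macrophage values are given above. Array means over 6 Müller glia and astrocyte markers were 9.66 to 10.89 in mutant pools and 9.74 to 10.87 in wild type. Over the mean of the mutants 0 of these 6 were called higher and 1 lower, where 13.0% and 8.94% of all genes were. By mutant, 0 were higher and 0 lower in Fz4-/-, 1 and 0 in Lrp5-/- and 1 and 2 in Norrin KO, beside the shares given above. The part of macrophages and glia in the Apoe values was not tested. Thbs1, thrombospondin, which Lrp1 clears, rose by 1.10 over the mean of the mutants (adjusted p = 0.00268). A2m, the protease inhibitor taken up by Lrp1, was at 0.89 (adjusted p = 0.0387), a call that ended without any 1 of 11 arrays (adjusted p = 0.0516 to 0.0972). The arrays it did not need were Fz4-/- 2, Norrin KO 3, wild type 1 and wild type 4. By mutant, A2m was at 1.88 in Norrin KO (limma adjusted p = 0.00281), a call that no alternative ended. It was at 0.98 in Fz4-/- and −0.175 in Lrp5-/- (adjusted p = 0.114 and 0.647). Norrin KO over Lrp5-/- was 2.05 (adjusted p = 0.0159). Reln, reelin, was at 1.10 over the mean of the mutants and did not pass (adjusted p = 0.0561). It was called higher in Norrin KO (1.55, limma adjusted p = 0.0414), a call that ended without any 1 of 8 arrays. Apob was dim and did not pass. Named after their values were seen, the other called ligands were Clu, clusterin, at 0.54, and on the lower side Plat, tissue plasminogen activator, at −0.68, the amyloid precursor App at −0.39 and the heparan sulfate proteoglycan Agrn at −0.39. The Agrn call (limma adjusted p = 0.0319) ended without any 1 of 6 arrays (adjusted p = 0.0507 to 0.0765), Fz4-/- 1 or 3 or wild type 1, 2, 4 or 6.

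Among 9 measured chaperones, adaptors and regulators of turnover, 1 was called higher and 1 lower over the mean of the mutants, a share near the 13.0% and 8.94% of all genes. Mylip, the ubiquitin ligase also known as Idol that sends Vldlr and Lrp8 to degradation, rose by 1.00 in Fz4-/- and 1.16 in Norrin KO (limma adjusted p = 0.0197 and 0.00575) and was at 0.64 in Lrp5-/- (adjusted p = 0.182). The Fz4-/- call ended without Fz4-/- 1 or Fz4-/- 2, and against wild type 1 to 3 alone (adjusted p = 0.0924). Srebf2, a transcription factor of sterol supply, was at −0.43 (adjusted p = 0.0311), a call that ended without any 1 of 6 arrays, Fz4-/- 2 or 3 or wild type 1, 3, 4 or 5. In Norrin KO Srebf2 was at −0.77 (limma adjusted p = 0.00594), a call that no alternative ended. It was at −0.17 in Fz4-/- and −0.35 in Lrp5-/- and did not pass there. The chaperone Lrpap1, also called RAP, was at 0.06 (95% interval −0.17 to 0.29) and Dab1, the adaptor of Lrp8 and Vldlr, at −0.17 (−0.67 to 0.32). Mesd was not analysed here.

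**Figure D5:**
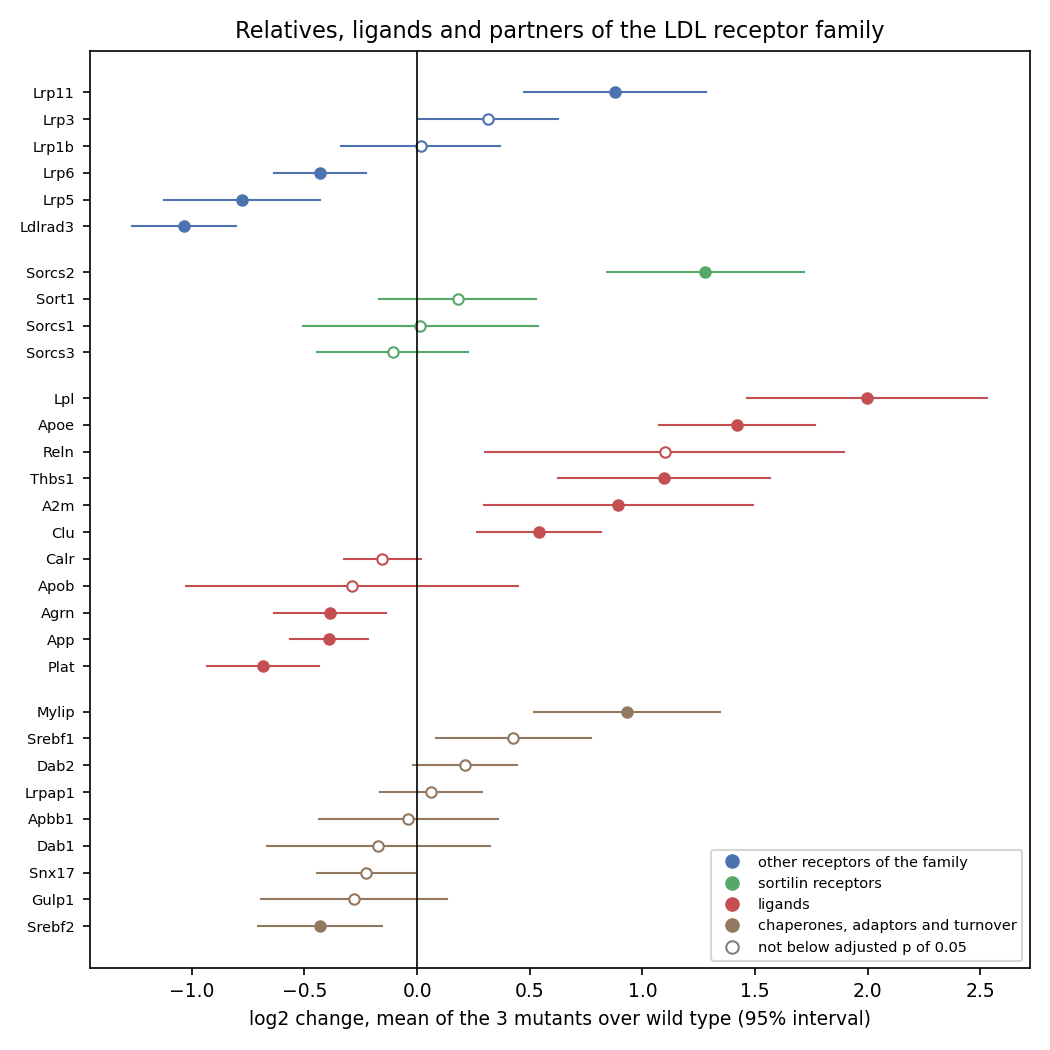
Log2 change (horizontal axis), mutant mean over wild type, for relatives, ligands and partners of the family, on the brightest probe set of each gene, with 95% intervals from limma. Filled points passed an adjusted p of 0.05. Lpl (2.00) and Apoe (1.42) lie farthest right and Ldlrad3 (−1.03) farthest left.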

How the data were processed

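RNA from 15 pools of purified retinal endothelial cells was hybridized to 1 Affymetrix mouse array each. The deposited values are log2 signals made by the authors with RMA, per the submitters' processing notes, which give no version or settings. They were used without further scaling or filter. RMA summarizes the probes of a probe set, and values near background compress fold changes. Probe sets were named from the platform annotation: 34945 of the 45037 that are not controls carried 1 symbol, 932 several and 9160 none. limma 3.58.1 under R 4.3.3 fitted the means of the 4 groups (lmFit, then contrasts.fit and eBayes) in 7 contrasts, with Benjamini-Hochberg adjustment over 45037 probe sets and a threshold of 0.05. Named genes were the 8 members, the deleted genes, the 3 genes nearest in pattern to a member with a called change of 1 or more, and up to 4 called and 2 uncalled genes of each of 4 lists. The further called ligands were named after their values were seen. Members, lists and alternatives were chosen with earlier results of these data known. Some genes of the lists are not reported here. The fit was tested on simulated data. Precision is set by the small number of arrays, 3 for each mutant. Genes in RefSeq windows are on GRCm38.p6.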

Additional observations from a re-analysis of the deposited data

Results flagged for a closer look

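Wild type 4 stood apart from the other 5 wild-type arrays on a pair of probe sets. On Vldlr 1451156_s_at it read 8.00, against 6.67 to 6.95 on the others. On Lrp8 1421459_a_at it read 7.43, against 6.31 to 6.61. The gap was larger than Dixon's 95% limit, which chance passes in about 1 of 20 groups, and 20 were examined. Lrp1 1448655_at differed between mutants, Norrin KO over Lrp5-/- by 0.75 (limma adjusted p = 0.0307). The means were 10.57 in Norrin KO and 9.82 in Lrp5-/-. It was 1 of 20 member probe sets, where 7.44% of all probe sets passed in that pair. The call ended with only the groups compared (limma adjusted p = 0.136) and without some single arrays.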

How the results depend on the processing

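Alternatives were 10 settings and leaving out each of the 15 arrays, and no called member probe set changed direction under any of them. Counts of called member probe sets moved under these settings. With 1 probe set per gene, 1 was lower in each of Fz4-/-, Lrp5-/-, Norrin KO and the mean of the mutants, since Lrp8 then has 1 probe set. With only the brighter probe sets tested, 4 were higher in Fz4-/-, Lrp1 and Sorl1 being added. Without Lrp5-/- 1, Lrp5-/- 3 and wild type 4, 1 was higher in Lrp5-/-, which then has 1 array. Between Norrin KO and Lrp5-/- the count was 0 with those arrays left out, 0 with only the groups compared, 2 with the replicate block, and 0 to 3 with single arrays left out. The cause was not tested. Replicate numbers did not pair the arrays throughout, as deviations of same-numbered arrays correlated at −0.281 to 0.376, above 0.1 in 6 of 18 pairs. Matching by sex genes gave the same-numbered pairs for Fz4-/- but other pairs for Lrp5-/-. The matched arrays had deviations from the mean of their 3 arrays that correlated in every pair (0.251 to 0.334 for Fz4-/- 1 to 3 with wild type 1 to 3, and 0.315 to 0.682 for Lrp5-/- 1 to 3 with wild type 4 to 6). The replicate block thus sets Lrp5-/- against other wild-type arrays than the matched ones. No mutant array has the replicate numbers of wild type 4 to 6, so the block leaves only wild type 1 to 3 to compare with. For Lrp4 in Fz4-/- the change was 1.65 with the block and 1.65 against wild type 1 to 3 alone. The part of fewer wild-type arrays in the calls lost was not tested. With the replicate block, Lrp8 1421459_a_at passed in neither Lrp5-/- nor Norrin KO (adjusted p = 0.0568 and 0.124), nor did Lrp12 (0.57 and 0.72, adjusted p = 0.262 and 0.0902). Over the mean of the mutants it also ended the calls of Clu, App, Agrn, A2m, Srebf2, Lrp6 and Lrp11 (adjusted p = 0.0548 to 0.255), and 14 calls of list genes in single mutants, among them that of Sort1 in Norrin KO (0.76, adjusted p = 0.0854). With the matched arrays as pairs instead, chosen after the data were seen and without Norrin KO, the Lrp5-/- calls of Lrp8 1421459_a_at and Lrp12 held (−1.88 and 0.92, adjusted p = 0.0172 and 0.00796) and Sorl1 1453003_at passed (1.12, adjusted p = 0.00485). With 3 arrays per mutant and signals near background, small changes of dim probe sets such as those of Lrp2 are beyond these data.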
